A study of Mus musculus with 6 samples.

Results

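The genes described here encode 8 chains of interleukin receptors that lymphocytes use, Il21r, Il2rb, Il2rg, Il7r, Il18r1, Il12rb1, Il12rb2, and Il10ra. They were chosen by their symbols, 8 of the 31053 genes listed for the transplanted kidneys, and each was measured as UMI counts (unique molecular identifiers, 1 per captured transcript) in single cells of mouse kidney. Il2rg encodes the common gamma chain, which pairs with the chains encoded by Il2rb, Il7r, and Il21r in the receptors for IL-2 and IL-15, IL-7, and IL-21, and these signal through JAK kinases to STAT transcription factors. IL-7 maintains resting T cells, IL-2 and IL-15 drive activated T cells and NK cells, and IL-21, made by helper T cells, acts on T and B cells. Il12rb1 and Il12rb2 encode the chains of the IL-12 receptor and Il18r1 the ligand-binding chain of the IL-18 receptor, both of which promote interferon gamma production. Il10ra encodes the ligand-binding chain of the receptor for IL-10, a cytokine that restrains myeloid cells.

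There were 6 kidneys, 2 in each of 3 groups, with 1 library per kidney. Naive kidneys were untransplanted organs of C57BL/6 mice aged 10-12 weeks. Rejecting kidneys came from BALB/c mice aged 6-7 weeks and were transplanted into C57BL/6 male recipients without their own kidneys and without treatment. Tolerized kidneys were transplanted in the same way into recipients given 2 intravenous infusions of donor BALB/c splenocytes treated with the cross-linker ECDI, on day 7 before and day 1 after surgery, and both transplanted groups were collected on day 15. The recipient and the graft differ in strain, and whether a leukocyte came from the host or with the graft was not analyzed.

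The 6 libraries held 34874702 to 96803926 UMIs in 8532 to 13378 barcodes, and 5608 to 10483 cells per kidney were used. Between 0 and 111 barcodes were shared between any 2 libraries. Median depth was lower in the rejecting kidneys, for example 1614 and 2950 UMIs per effector CD8 T cell against 4788 and 5442 in the tolerized kidneys. The median mitochondrial share of T cells was 14.1% in rejecting 1 and 5.17%, 4.36%, and 6.17% in rejecting 2 and tolerized 1 and 2. In effector CD8 T cells it was 11.1%, 4.75%, 3.91%, and 5.27% in the same order. A shallow T cell cluster held 1993 cells of rejecting 1 and 181, 51, and 78 of the others. Levels are given as CPM, counts scaled to a common total of UMIs in each sum. Summed over 11 macrophage marker genes, the T cells of rejecting 1 held 1005 CPM against 211 in rejecting 2 and 149 and 79.1 in tolerized 1 and 2, and 9 of the 11 genes were higher in both rejecting kidneys. Proximal tubule markers in T cells were highest in tolerized 2, at 1717 CPM against 270 to 1029 in the others. Il2rb in proximal tubule cells, which should lack it, reached 11.4 CPM in rejecting 1 and 2.04, 1.12, and 0.52 CPM in rejecting 2 and tolerized 1 and 2.

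Cells were grouped by marker genes into T cell-like, NK-like, B-like, and myeloid classes, and T cells were clustered again into subsets. The ending is left out of the class names from here on. The members were kept out of the genes used for clustering. Defining markers were present where they should be. Cd8a in effector CD8 T cells stood at 1208 and 1116 CPM in rejecting and 1021 and 835 CPM in tolerized kidneys. Cd4 in conventional CD4 T cells stood at 385 and 353 against 246 and 201 CPM. Both markers were thus higher in both rejecting kidneys. Foxp3 stood at 242 to 438 CPM in regulatory T cells and Ncr1 at 721 to 962 CPM in NK cells, with overlapping groups. Effector CD8 T cells numbered 1470 and 1231 in the rejecting and 831 and 319 in the tolerized kidneys, and conventional CD4 T cells 313, 297, 166, and 127 in the same order. An unnamed share of T cells, led by Ccl8 and other macrophage genes or by other leading genes, made up 28.6% and 15.5% of T cells in the rejecting pair and 9.99% and 11.4% in the tolerized pair, and it entered the sums over all T cells but none of the subsets. A myeloid cluster led by Lyz1 and Chil1 also stayed without a cell type name, although 10 of 11 macrophage markers counted in it. Its leading genes included Itgax, listed for dendritic cells, and no macrophage marker.

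Il21r and Il7r are the members that the comparisons turn on, and their promoters are shown for that reason. Il21r lies at chr7:125603429-125633570 on the plus strand and Il7r at chr15:9505788-9530176 on the minus strand (GRCm38). The windows run from 250 bases before to 50 bases after the start of the RefSeq transcript and are given on the strand of the gene, with matches to 3 motifs in capitals. The motifs, searched on both strands, were TTCNNNGAA of STAT factors, GTAAACA of Foxo factors, and TTCCGG of Ets factors, and 8.33%, 3.66%, and 15% of 32544 mouse promoter windows held them. No 2 matches overlapped in these windows, and a match is a run of letters, not a measured binding site.
Il21r, chr7:125603179-125603478, plus strand: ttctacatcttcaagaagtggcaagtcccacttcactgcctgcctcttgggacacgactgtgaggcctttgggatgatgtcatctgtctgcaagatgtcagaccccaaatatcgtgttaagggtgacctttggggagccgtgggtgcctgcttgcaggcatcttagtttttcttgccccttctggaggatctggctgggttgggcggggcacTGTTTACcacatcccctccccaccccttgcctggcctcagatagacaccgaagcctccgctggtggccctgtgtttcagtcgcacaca
Il7r, chr15:9529827-9530126, minus strand: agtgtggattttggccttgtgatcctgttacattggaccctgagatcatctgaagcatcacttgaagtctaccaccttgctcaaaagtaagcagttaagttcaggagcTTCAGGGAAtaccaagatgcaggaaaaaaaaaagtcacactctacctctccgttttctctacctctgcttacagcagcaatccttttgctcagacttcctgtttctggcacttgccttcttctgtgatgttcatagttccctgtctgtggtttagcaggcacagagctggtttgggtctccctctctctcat
The Il21r window held the Foxo letters once, on the opposite strand, and the Il7r window held the STAT letters once. The Il7r window lies wholly within the gene span given above, since that span follows GENCODE and the window a RefSeq start. Windows of 5 of the 8 genes matched the RefSeq table. The counts for Il2rg (chrX:101264378-101268255) may share reads with Gm20489, which overlaps it on the same strand, and Il12rb2 (chr6:67291318-67376188) overlaps Serbp1 on the opposite strand.

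The class in which each receptor was most abundant is given first, as CPM of UMIs summed per kidney and class, before further normalization. These levels describe the cells and were not tested between classes, because the classes were built from the same cells. The order covers 13 classes with at least 30 cells in each kidney, and smaller classes are given beside it. Over the 4 transplanted kidneys, Il2rb was most abundant in NK cells, at 635 to 1100 CPM, followed by effector CD8 T cells at 449 to 682 CPM and regulatory T cells at 382 to 704 CPM. All 5 T cell subsets lay above 177 CPM, and the range of conventional CD4 T cells did not overlap that of neutrophils, the next of the classes ordered, which reached 63.2 CPM at most. The few plasma cells held 39.0 to 67.9 CPM of Il2rb. Il18r1 was also most abundant in NK cells among the classes ordered, at 126 to 203 CPM, with conventional CD4 T cells next at 116 to 173 CPM and effector CD8 T cells lowest of the T cell subsets at 42.7 to 86.7 CPM. The few mast cells or basophils held Il18r1 at 207 to 296 CPM, from 8 to 51 UMIs. Il12rb2 had its highest level in NK cells, at 53.2 to 99.2 CPM, a range that did not overlap that of naive or central memory T cells, the next of the classes ordered, at 4.25 to 13.1 CPM. NK cells held 14.0% to 41.1% of the Il12rb2 UMIs of leukocytes, T cells 25.7% to 42.1%, and myeloid cells 30.5% to 51.4%.

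Il7r was most abundant in naive or central memory T cells, at 513 to 732 CPM, and lowest of the T cell subsets in cycling T cells, at 8.84 to 43.6 CPM. Effector CD8 T cells held 44.4 to 152 CPM of it. Plasmacytoid dendritic cells held 292 to 359 CPM of Il7r, from 56 to 66 UMIs per kidney, whereas B cells held 1.89 to 6.84 CPM. Il21r was highest in effector CD8 T cells, at 87.5 to 345 CPM, and its ranges overlapped between each class and the next down the whole order. B cells held 48.4 to 140.2 CPM of Il21r, conventional dendritic cells 43.7 to 91.0 CPM, and NK cells only 5.54 to 46.2 CPM. Il2rg was found in lymphocytes and myeloid cells alike, from 120 to 141 CPM in cycling T cells to 234 to 360 CPM in NK cells. Neutrophils held 0 to 126 CPM of it, plasma cells 21.8 to 122 CPM, and plasmacytoid dendritic cells 92.4 to 151 CPM.

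Il10ra ran the other way, with its highest levels in myeloid cells. Its level was highest in non-classical monocytes, at 251 to 369 CPM, then in monocytes, at 139 to 277 CPM, and lowest of the classes ordered in naive or central memory T cells, at 9.61 to 32.4 CPM. Plasma cells held 0 to 23.8 CPM. Myeloid cells held 82.5% to 84.9% of the Il10ra UMIs of leukocytes in the 4 kidneys, and T cells 9.49% to 10.96%. For Il2rb the shares were 78.8% to 92.6% in T cells and 5.47% to 16.1% in NK cells, and for Il7r 85.7% to 90.5% in T cells. Il12rb1 was sparse, with 102 to 356 leukocyte UMIs per kidney. It stood at 6.28 to 36.8 CPM in regulatory T cells and 10.2 to 21.1 CPM in macrophages.

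**Figure D1:**
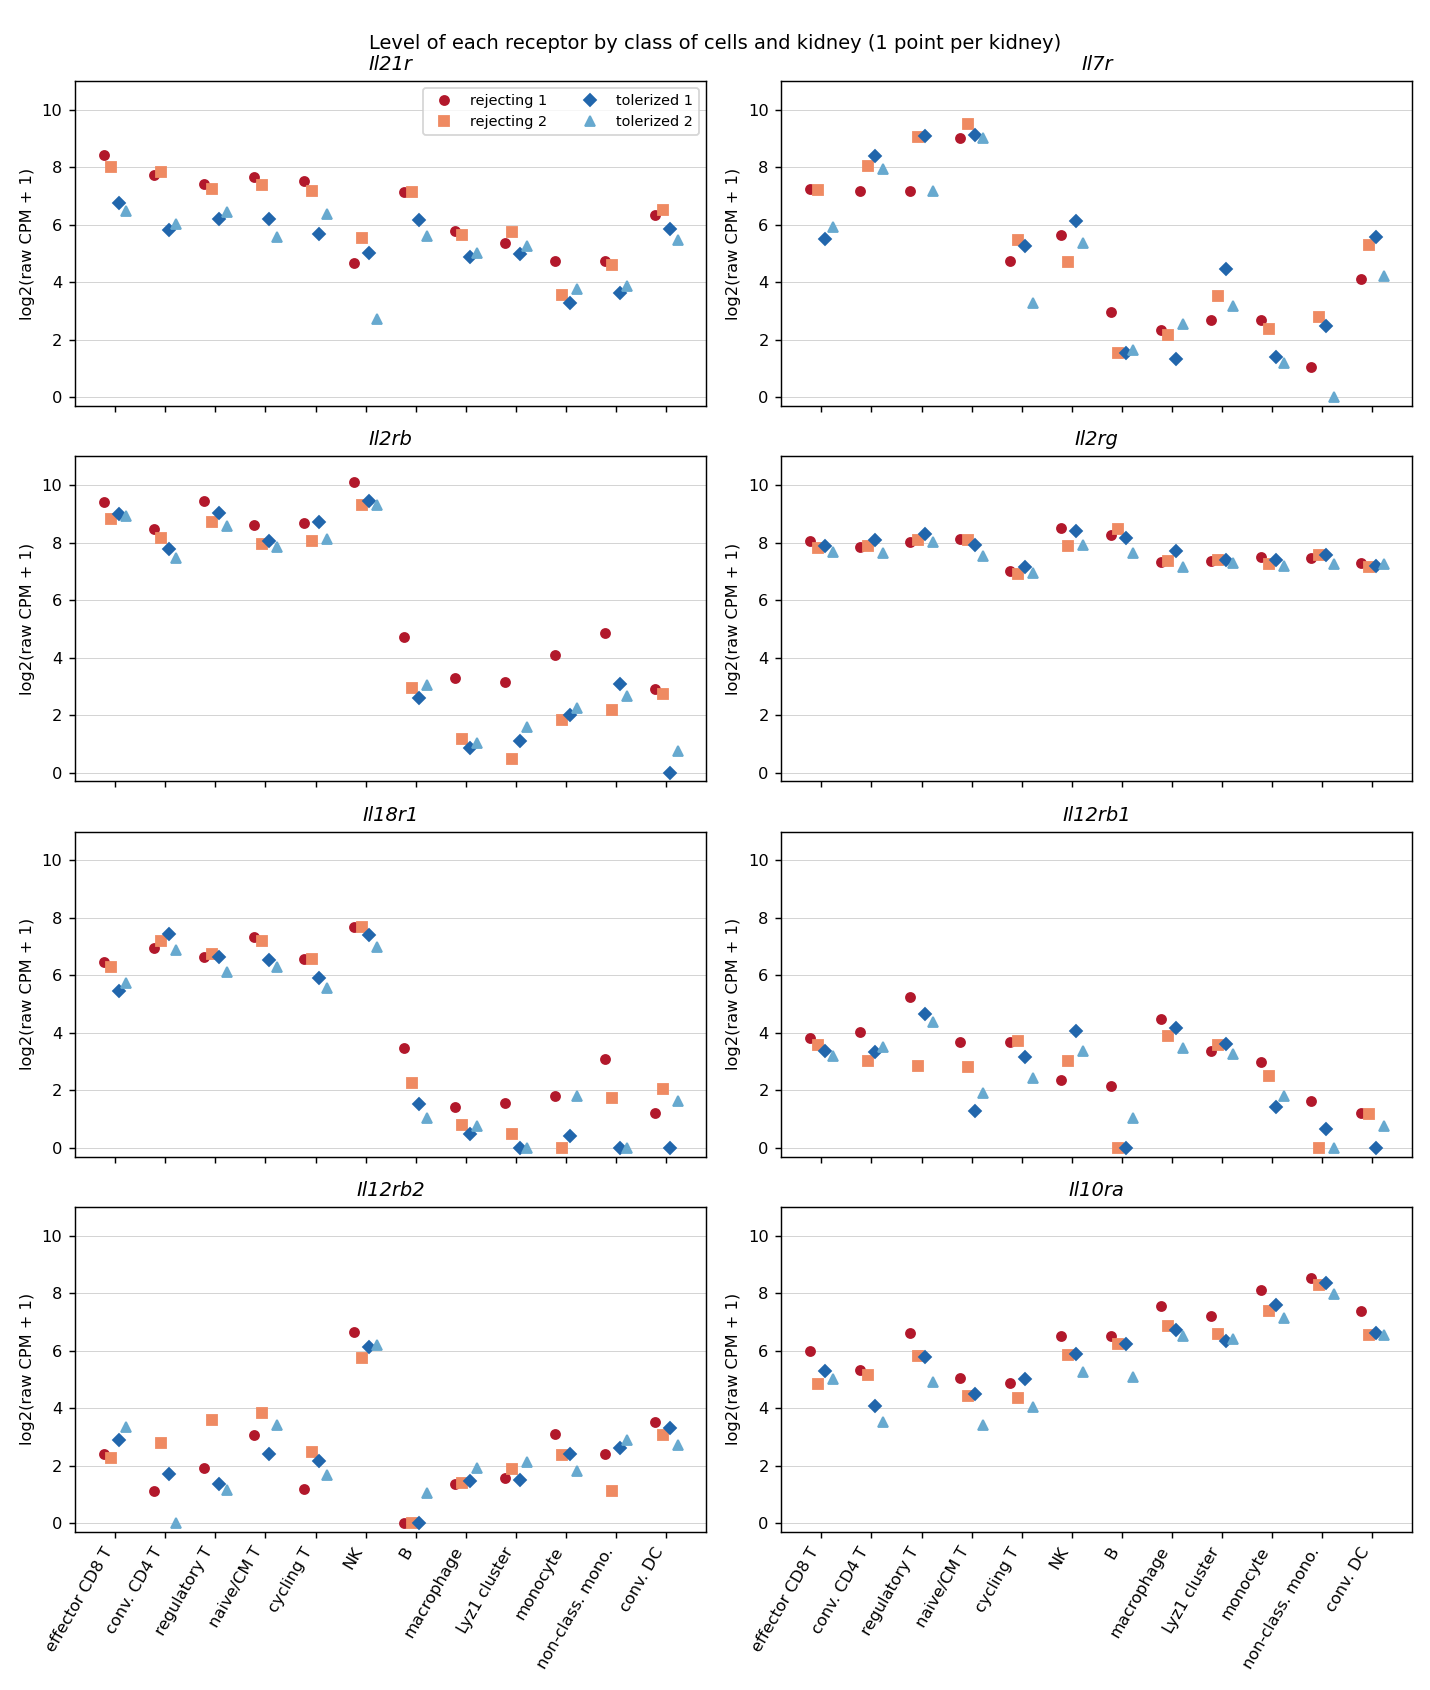
Level of the 8 receptors in 12 classes of cells, as log2(raw CPM + 1), with 1 point per transplanted kidney (red and orange for rejecting, dark and light blue for tolerized). Il2rb and Il18r1 sit high in T and NK cells but not in B cells, and Il12rb2 in NK cells alone, at 53.2 to 99.2 CPM. Il10ra rises from T cells to non-classical monocytes at 251 to 369 CPM.

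Rejecting and tolerized kidneys were compared within each class, on the sums per kidney, with the quasi-likelihood test of edgeR and a false discovery rate (FDR) of 0.05 over all genes of the class. Before normalization the median gene was lower in the tolerized kidneys by 0.04 to 0.25 on the log2 scale in 13 of the 14 classes and higher by 0.06 in neutrophils. The TMM-normalized CPM given from here on for single genes, where not called raw, remove this shift. Marker sums and the counts of marker genes higher in both rejecting kidneys are in raw CPM and keep it. Log2 fold changes are tolerized minus rejecting. With 2 kidneys in each group, the spread was pooled over genes. Intervals of log2 fold changes were set from the SE by a normal approximation, so their stated coverage is nominal. They are narrower than the quasi-likelihood test implies and can exclude equal levels where its p was above 0.05. For Il18r1 over all T cells the interval was -0.78 to -0.0002, at an unadjusted edgeR p of 0.0794. Where no call was made, they bound the difference too tightly.

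Il21r was called lower in tolerized kidneys in conventional CD4 T cells, and it was the member with the largest difference in that class. It stood at 212 and 213 CPM in the rejecting and 58.1 and 72.8 CPM in the tolerized kidneys. The groups did not overlap, and both rejecting kidneys held nearly the same level. The log2 fold change was -1.70 (SE 0.24, 95% interval -2.17 to -1.24, n = 2 and 2, edgeR FDR 0.0173), or 3.26-fold higher in rejecting kidneys. By p-value Il21r ranked 3 among 7161 genes in this class, in which 0.0978% of genes were called. It was 1 of 6 members tested there, and DESeq2 also called 1. The call was lost with the replicate number as a block (log2 fold change -1.71, edgeR FDR 0.12). The study describes its kidneys as coming from 2 experiments, and the labels do not state whether the replicate numbers mark them. Macrophage markers in these cells summed to 856 and 265 CPM in rejecting against 146 and 69.2 CPM in tolerized kidneys, with 10 of 11 genes higher in both rejecting kidneys. Raw levels of Il21r were 28.2 to 54.8 CPM in macrophages, 56.2 to 226 CPM in conventional CD4 T cells, and 87.5 to 345 CPM in effector CD8 T cells. Effector CD8 T cell markers, too, were higher in both rejecting kidneys for 8 of 9 genes, and summed to 4424 and 4778 against 3128 and 2221 CPM in these CD4 T cells. Their part in the difference was not tested.

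In effector CD8 T cells, the class with the highest level, Il21r stood at 318 and 252 CPM in rejecting and 113 and 94.0 CPM in tolerized kidneys. Both tolerized kidneys lay under both rejecting kidneys here as well. The log2 fold change was -1.46 (SE 0.25, 95% interval -1.95 to -0.97), but its FDR of 0.0571 (edgeR) missed the threshold. In this class 0.0299% of genes were called. The call moved with the processing, since Il21r passed in 10 of 19 alternatives, with log2 fold changes of -1.60 to -1.28. DESeq2 called 2 of the 8 members in these cells, Il21r and Il7r. The difference in the change of Il21r between effector CD8 and conventional CD4 T cells was 0.24 (SE 0.24, edgeR FDR 1), so no difference between the subsets was detected.

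The level of Il21r was lower in tolerized kidneys across T cell subsets without passing the threshold in the others. In naive or central memory T cells it stood at 192 and 155 CPM in rejecting and 80.9 and 52.7 CPM in tolerized kidneys (log2 fold change -1.37, edgeR FDR 0.0890). In cycling T cells the values were 194 and 138 against 52.2 and 86.0 CPM, and in regulatory T cells 168 and 144 against 75.2 and 98.1 CPM. The groups did not overlap in any of these subsets. Regulatory T cells had the smallest difference of the subsets, a log2 fold change of -0.86 (SE 0.24, edgeR FDR 0.476), and the change in effector CD8 T cells was not shown to differ from it (difference -0.56, SE 0.24, FDR 0.701). Over all T cells together the log2 fold change was -1.49 (edgeR FDR 0.208), the second smallest p of 11593 genes. Effector CD8 T cell markers in naive or central memory T cells summed to 10731 and 8754 CPM in rejecting and 8408 and 7062 CPM in tolerized kidneys. Of these markers, 7 of 9 were higher in both rejecting kidneys, as were 7 of 11 T cell and 7 of 11 macrophage markers. Their part in the Il21r difference was not tested.

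Outside T cells, Il21r in B cells stood at 137 and 133 CPM in rejecting and 74.5 and 53.9 CPM in tolerized kidneys, with a log2 fold change of -1.06 (SE 0.26, edgeR FDR 0.568). In conventional dendritic cells it stood at 81.9 and 84.7 against 58.8 and 47.3 CPM, and in macrophages at 53.9 and 47.0 against 28.3 and 33.2 CPM. In NK cells the groups overlapped, at 25.8 and 46.5 against 33.4 and 6.45 CPM. In all, Il21r lay under 0 on the log2 scale in 13 of the 13 classes in which it was tested, from -1.70 to -0.34, and both tolerized kidneys were under both rejecting kidneys in 10 of them. Over all genes and classes together 18.9% of tests showed that order. The 13 include all T cells pooled along with their subsets, so they are not independent of each other. T cells held 52.3% to 68.7% of the Il21r UMIs of leukocytes. T cell markers were higher in both rejecting kidneys for 8 of 11 genes in B cells, 9 in conventional dendritic cells, and 5 in macrophages. They summed to 733 and 371 against 258 and 395 CPM in B cells. In conventional dendritic cells the sums were 140 and 85.4 against 13.9 and 14.1 CPM. Their part in the differences outside T cells was not tested.

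Il7r, by contrast, differed in opposite directions between T cell subsets. In effector CD8 T cells it stood at 140.4 and 143 CPM in rejecting and 46.9 and 63.8 CPM in tolerized kidneys. In conventional CD4 T cells it stood at 143 and 245 CPM in rejecting and 350 and 279 CPM in tolerized kidneys. Neither pair of groups overlapped after TMM normalization, and tolerized kidneys were the lower ones in CD8 and the higher ones in CD4 T cells. In raw CPM the groups overlapped in CD4 T cells, at 144 and 261 CPM in rejecting and 338 and 245 CPM in tolerized kidneys. Neither change passed on its own, with log2 fold changes of -1.37 (SE 0.24, edgeR FDR 0.0571) in CD8 and 0.70 (SE 0.27, edgeR FDR 0.503) in CD4 T cells. The CD8 change passed in 9 of 19 alternatives.

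The difference between the 2 changes passed its own test, in a model over both subsets with the kidney as a block. The log2 ratio of Il7r in effector CD8 to conventional CD4 T cells was -0.03 in rejecting 1 and -0.77 in rejecting 2, and -2.87 in tolerized 1 and -2.11 in tolerized 2. The difference of the changes was -2.16 (SE 0.21, edgeR FDR 4.95e-20), where 0.323% of 8980 genes were called. Against naive or central memory T cells the log2 ratio was -1.81 and -2.26 for the rejecting pair and -3.72 and -3.16 for the tolerized pair, a difference of -1.45 (SE 0.20, edgeR FDR 0.00225), where 0.264% of 8725 genes were called. The Il7r level of the naive or central memory T cells themselves was 493 and 691 CPM in rejecting and 628 and 580 CPM in tolerized kidneys (log2 fold change 0.03, 95% interval -0.49 to 0.54). These cells also held effector CD8 T cell markers, as given above. These tests were chosen after the levels were seen. With 2 residual degrees of freedom per gene they rest on the spread pooled over genes, so the small FDR values do not reflect 2 kidneys alone. Against conventional CD4 T cells the pooling was complete for the median gene (infinite prior degrees of freedom). The spread of Il7r itself between kidneys thus had little weight, if any, in the SE and FDR of that test. Its log2 ratios within each pair of kidneys lay further apart than the SE of 0.21.

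The size of the Il7r difference also depended on how subsets were defined. When T cells were split by UMIs of Cd8a, Cd8b1, Cd4, and Foxp3 in place of clusters, the difference between CD8 and CD4 T cells was -1.36 (edgeR FDR 1.11e-06) and the CD8 change alone was -0.73 (FDR 0.505). In regulatory T cells Il7r varied more within groups than between them, at 142 and 504 CPM in rejecting and 566 and 163 CPM in tolerized kidneys. Against this subset the difference from effector CD8 T cells was -1.66 with an SE of 1.45 (edgeR FDR 1), where 0.14% of genes were called.

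**Figure D2:**
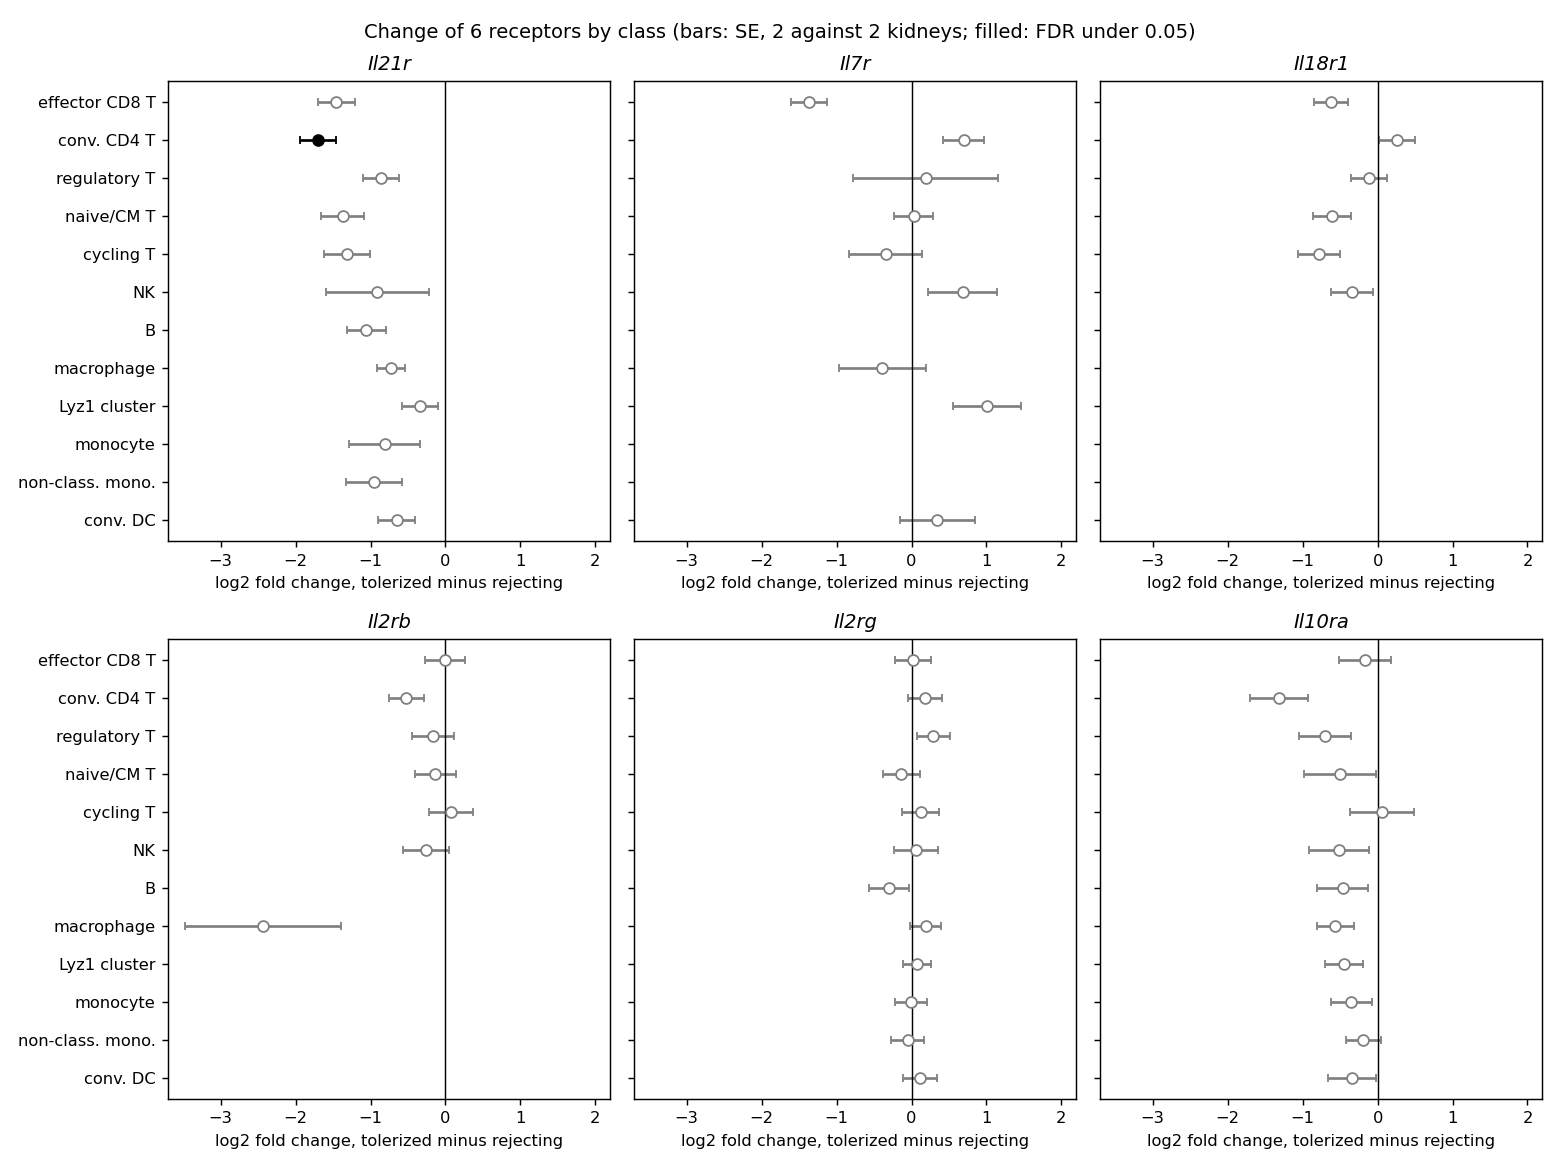
Log2 fold change, tolerized minus rejecting, of 6 receptors in 12 classes of cells, with the SE as bars (2 against 2 kidneys), filled where the FDR was under 0.05. Il21r lies left of 0 in each class shown and is filled in conventional CD4 T cells at -1.70, while Il7r lies at -1.37 in effector CD8 and 0.70 in conventional CD4 T cells.

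Effector CD8 T cells were made of 4 subclusters, named here by their leading genes Gzmk, Gm156, Cd7, and Ccl3, and levels in them are raw CPM with no test. Raw CPM keep the shift of the median gene, -0.14 on the log2 scale in the whole class. The share of all genes lower in both tolerized kidneys was not counted in the subclusters. It was 20.7% in the whole class after TMM normalization. Il21r was lower in both tolerized kidneys in each of the 4. It stood at 430 and 273 CPM in rejecting and 128 and 101 CPM in tolerized kidneys in the Gm156 subcluster, the largest, and at 189 and 174 against 44.7 and 59.6 CPM in the Ccl3 subcluster. Il7r was lower in both tolerized kidneys in 3 of the 4. In the Cd7 subcluster, which also carried Itgae and Gzmb, it stood at 163 and 142 CPM in rejecting against 27.4 and 32.9 CPM in tolerized kidneys. The Ccl3 subcluster, which carried the inhibitory receptor gene Havcr2, was the exception, with 55.2 and 39.4 against 49.6 and 89.4 CPM. Il18r1 differed widely between subclusters, with 6.16 to 30.4 CPM over the 4 kidneys in the Cd7 subcluster and 114 to 145 CPM in the Ccl3 subcluster.

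**Figure D3:**
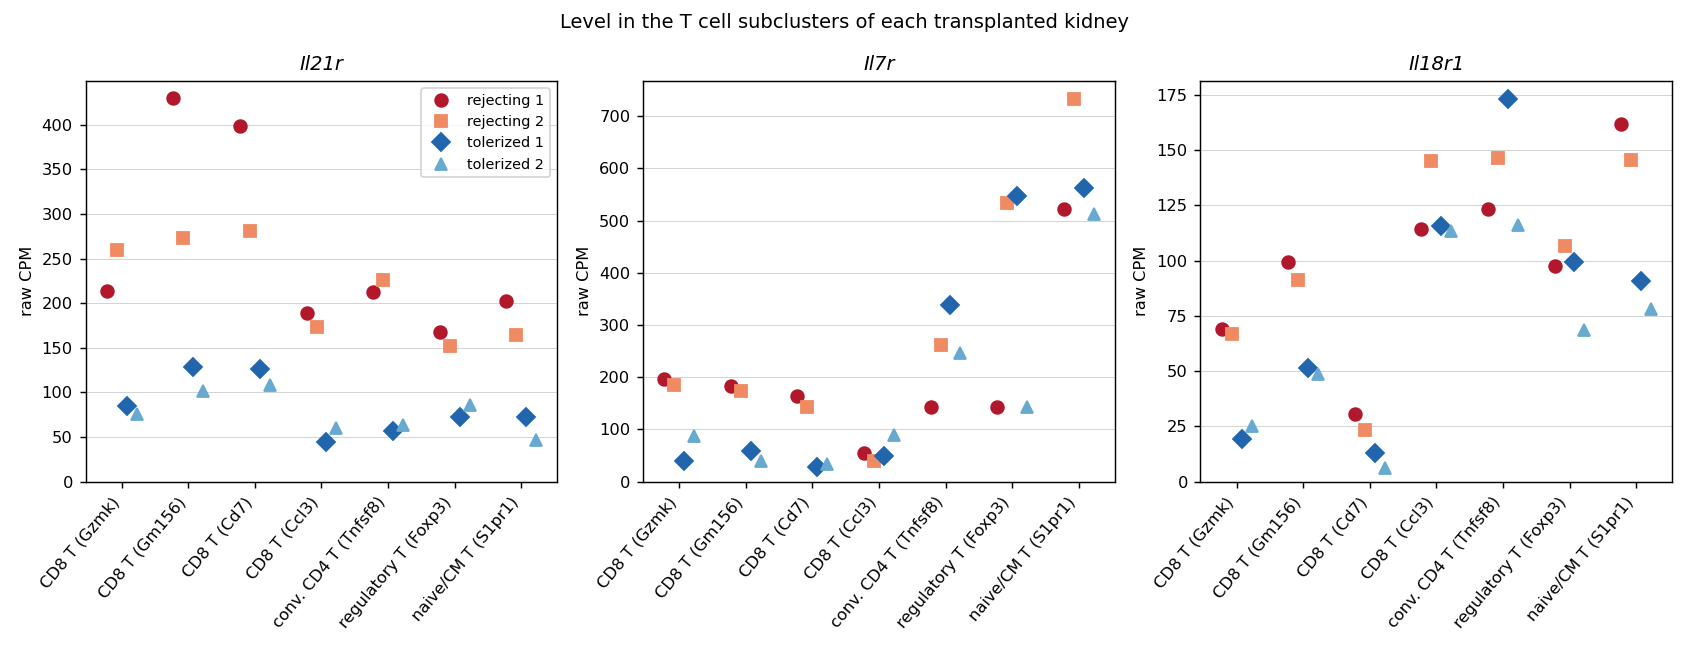
Raw CPM of Il21r, Il7r, and Il18r1 in 7 T cell subclusters, each named by its class and leading gene, with 1 point per transplanted kidney. The Il21r points of both tolerized kidneys lie under those of both rejecting kidneys in every subcluster shown, while the Il7r points do so in the Gzmk, Gm156, and Cd7 subclusters of CD8 T cells. The share of all genes with this order was not counted in the subclusters.

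Because rejecting cells held fewer UMIs, each cell was also thinned to 1000 UMIs and the share of cells with at least 1 UMI was counted. Il21r was then found in 27.3% and 22.7% of effector CD8 T cells in rejecting and in 10.99% and 6.37% in tolerized kidneys, with 322, 32, 3, and 5 shallower cells left out. Without thinning the shares were 45.4% and 51.8% against 35.7% in each tolerized kidney. In conventional CD4 T cells the thinned shares were 20.2% and 15.8% against 4.82% and 10.3%. Proximal tubule cells of the same kidneys showed 0.285%, 0%, 0.0581%, and 0.0438%, where 0 of 1041 cells allows up to 0.354% by the exact 95% interval. Il7r was found in 11.8% and 12.3% of thinned effector CD8 T cells in rejecting and 4.23% and 4.78% in tolerized kidneys, and in conventional CD4 T cells in 11.6% and 20.5% against 19.3% and 17.5%. The groups overlapped in the last case and in no other of these 4. With 2 against 2 kidneys an exact permutation test (two-sided) cannot give p under 0.33, which is what the 3 separated shares gave. These intervals cover counting error only.

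**Figure D4:**
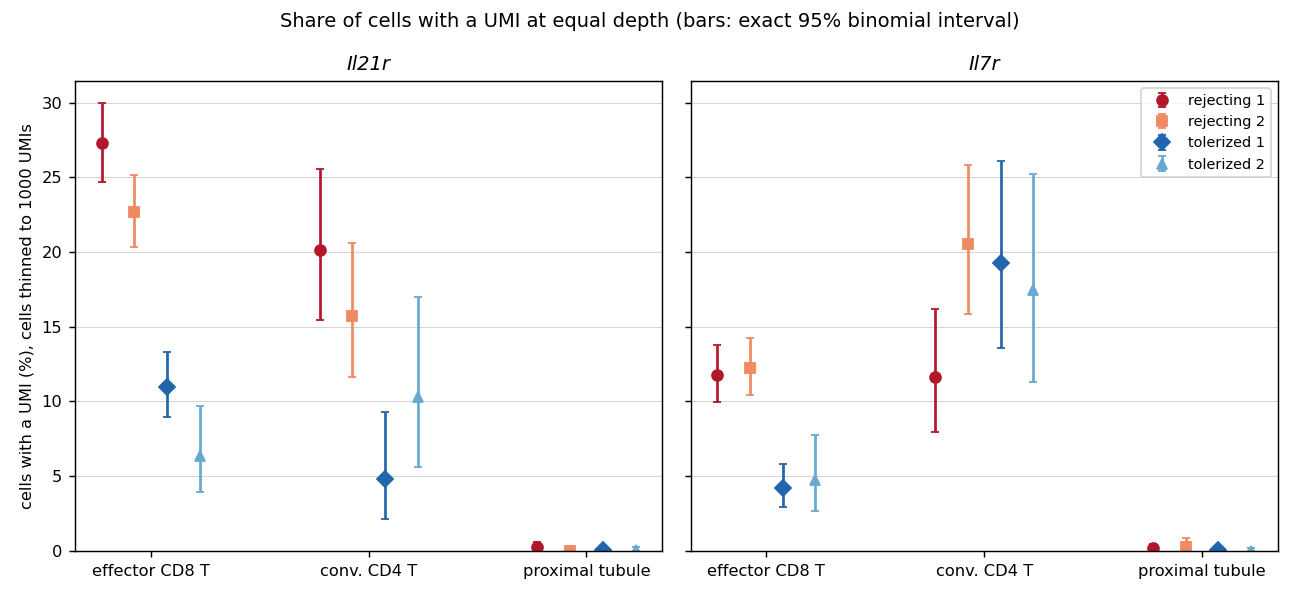
Share of cells with at least 1 UMI of Il21r or Il7r after each cell was thinned to 1000 UMIs, by kidney, with exact 95% binomial intervals, in effector CD8 T, conventional CD4 T, and proximal tubule cells. Il21r shares in effector CD8 T cells were 27.3% and 22.7% for the rejecting pair and 10.99% and 6.37% for the tolerized pair, and tubule cells stayed under 0.3% for both genes.

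The other chain of the IL-2 and IL-15 receptor, Il2rb, showed no call. In effector CD8 T cells it stood at 630 and 435 CPM in rejecting and 544 and 518 CPM in tolerized kidneys, and the groups overlapped (log2 fold change 0.00, 95% interval -0.53 to 0.52). In NK cells it stood at 1146 and 640 against 747 and 740 CPM. In conventional CD4 T cells both tolerized kidneys were lower, at 352 and 267 against 228 and 202 CPM (log2 fold change -0.52, edgeR FDR 0.53). In macrophages a log2 fold change of -2.44 (edgeR FDR 0.892) came from rejecting 1 alone, at 8.67 CPM against 1.21, 0.82, and 1.11 CPM in rejecting 2 and tolerized 1 and 2. T cell markers in those macrophages summed to 135, 39.2, 16.6, and 41.0 CPM in the same order, and their part was not tested.

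The common gamma chain Il2rg showed no call. It stood at 243 and 215 CPM in rejecting and 247 and 216 CPM in tolerized effector CD8 T cells, and at 229 and 221 against 283 and 224 CPM in conventional CD4 T cells. Its log2 fold changes ran from -0.30 in B cells to 0.29 in regulatory T cells over 13 classes, with edgeR FDR values of 0.825 to 0.997. The 95% interval of its log2 fold change in effector CD8 T cells was -0.45 to 0.49.

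Il18r1 in effector CD8 T cells stood at 80.1 and 75.6 CPM in rejecting and 45.1 and 56.9 CPM in tolerized kidneys (log2 fold change -0.62, SE 0.23, edgeR FDR 0.517). In conventional CD4 T cells it stood at 123 and 138 against 179 and 132 CPM, with overlapping groups (log2 fold change 0.26). The changes in these 2 subsets differed by -0.95 (SE 0.22, edgeR FDR 0.0104), but the call was lost without rejecting 1 (difference -0.80, FDR 0.294), without tolerized 1 (difference -0.44, FDR 0.977), and when subsets were split by marker UMIs (difference -0.50, FDR 0.843). NK cells held 211 and 204 CPM of Il18r1 in rejecting and 181 and 146 CPM in tolerized kidneys (log2 fold change -0.34, edgeR FDR 0.854). The log2 fold change of Il18r1 was under 0 in 6 of 7 classes, against 48.9% to 50.9% of all genes per class, and none was called. The 7 include all T cells pooled along with their subsets, so they are not independent of each other.

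The IL-12 receptor chains were sparse, with 102 to 356 leukocyte UMIs of Il12rb1 and 95 to 133 of Il12rb2 per kidney. Il12rb2 in NK cells stood at 103 and 53.6 CPM in rejecting and 74.0 and 83.9 CPM in tolerized kidneys, overlapping groups with a log2 fold change of 0.03 (95% interval -0.71 to 0.77). Both tolerized kidneys held more of it in effector CD8 T cells, at 3.99 and 3.69 against 6.73 and 9.86 CPM (log2 fold change 1.06, edgeR FDR 0.557). After thinning to 1000 UMIs the order was not kept, since 0.697% and 0.334% of these cells held a UMI in rejecting and 0.362% and 0% in tolerized kidneys, from 8 cells at most in any kidney. Of the 314 cells of tolerized 2, 0 allows up to 1.17% by the exact 95% interval. At 500 UMIs a cell the mean shares were 0.0746% in rejecting and 0.591% in tolerized kidneys, without overlap. The order thus changed with the depth. NK cell markers in effector CD8 T cells summed to 481 and 449 CPM in rejecting and 881 and 988 CPM in tolerized kidneys. Of these 10 genes, 5 were higher in both tolerized kidneys and 0 in both rejecting kidneys. Their part in the Il12rb2 difference was not tested. Il12rb1 in effector CD8 T cells stood at 12.2 and 10.6 against 9.97 and 8.70 CPM (log2 fold change -0.27, edgeR FDR 0.844).

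The log2 fold change of Il10ra was under 0 in 13 of 14 classes, against 48.9% to 51.3% of all genes per class, and edgeR called none. The 14 include all T cells pooled along with their subsets. In 3 of the 14, both tolerized kidneys held less Il10ra than both rejecting kidneys, a share near the 18.9% of all tests of genes and classes. In monocytes the groups overlapped, at 276 and 161 against 189 and 150 CPM. The largest difference was in conventional CD4 T cells, at 39.0 and 32.5 CPM in rejecting and 16.3 and 11.9 CPM in tolerized kidneys, where the groups did not overlap (log2 fold change -1.32, SE 0.39, edgeR FDR 0.310). The macrophage markers given above were higher in both rejecting kidneys in these cells, 10 of 11 genes, and macrophages themselves held 91.1 to 187 raw CPM of Il10ra. Their part in the difference was not tested. In neutrophils Il10ra stood at 228 and 241 against 104 and 115 CPM (log2 fold change -1.08, edgeR FDR 0.285). These were 43 and 41 cells in rejecting and 36 and 35 in tolerized kidneys. Markers of other cells were found in them, with 19793 CPM of proximal tubule markers in rejecting 1 and 8889 CPM of B cell markers in rejecting 2. Their part in the difference was not tested. In non-classical monocytes, which held the most Il10ra, its values overlapped at 386 and 298 against 327 and 271 CPM (log2 fold change -0.19, 95% interval -0.65 to 0.27).

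Counted over the members, edgeR called 1 of 6 in conventional CD4 T cells and 0 in each of the other 13 classes. The members were chosen with earlier results of these data known. Their counts beside the shares of all genes are therefore a description and not a test of the set. Unadjusted p-values under 0.05 were given for 4 of 8 members in effector CD8 T cells, against 8.59% of all genes there, and 4 of 6 in conventional CD4 T cells, against 9.17%. They were given for 2 of 6 each in naive or central memory and cycling T cells, against 8.52% and 5.77%, for 2 of 7 in macrophages, against 5.45%, for 1 each in all T cells, regulatory T cells, B cells, non-classical monocytes, conventional dendritic cells, and neutrophils, and for 0 in NK cells, monocytes, and the Lyz1 cluster. DESeq2 called 1 member over all T cells, Il21r, and none in the classes outside T cells. Among all genes edgeR called 0.0% in all T cells, regulatory T cells, cycling T cells, NK cells, B cells, macrophages, and monocytes, where 294 to 904 genes had an unadjusted p under 0.05 and DESeq2 called 2 to 43. It called 0.0634% in naive or central memory T cells, 0.0111% in the Lyz1 cluster, 0.0571% in non-classical monocytes, 0.0246% in conventional dendritic cells, and 0.359% in neutrophils. Members lower in both tolerized kidneys numbered 4 of 8 in effector CD8 T cells (Il21r, Il7r, Il18r1, and Il12rb1), against 20.7% of all genes, and 3 of 6 in conventional CD4 T cells (Il21r, Il10ra, and Il2rb), against 21.1%. They numbered 3 of 7 in macrophages, 2 of 3 in B cells, and 2 of 8 over all T cells. Naive or central memory and cycling T cells held 2 of 6 each, monocytes and the Lyz1 cluster 0, and each remaining class 1. In these classes 16.6% to 24.0% of all genes showed this order. Higher in both tolerized kidneys were Il12rb2 in effector CD8 and Il7r in conventional CD4 T cells, against 20.25% and 20.19% of genes. So were Il2rg in regulatory T cells and in the Lyz1 cluster, against 18.37% and 18.59%, and Il12rb2 in macrophages, against 17.95%.

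The other genes of these pathways were taken from 4 lists of partner chains and other receptors, ligands, kinases with their transcription factors and adaptors, and feedback or target genes. Of them 56 genes could be tested in at least 1 of 14 classes, in 545 tests. Neither edgeR nor DESeq2 called any, and 70 tests, or 12.8%, had an unadjusted p under 0.05, against 6.89% of all 105274 tests of genes and classes. These lists, too, were chosen with earlier results of these data known, so the shares are a description. The lowest edgeR FDR, 0.0890, belonged to Irak2, a kinase downstream of the IL-18 receptor, in naive or central memory T cells, at 44.5 and 34.9 CPM in rejecting and 6.35 and 9.31 CPM in tolerized kidneys. Next was Il4ra, the chain that joins the common gamma chain in the IL-4 receptor, in effector CD8 T cells, at 50.8 and 46.1 against 24.2 and 16.2 CPM (log2 fold change -1.22, edgeR FDR 0.109). Of the kinases, transcription factors, and adaptors, 13 of 16 in effector CD8 T cells had a log2 fold change under 0, against 48.9% of all genes. Their median was -0.43 against 0.01 over all genes there. In conventional CD4 T cells 12 of 15 did, against 50.2%, with a median of -0.15 against 0.00. The tilt was not particular to these subsets. It held for 14 of 16 in each of regulatory T cells, macrophages, and monocytes and 12 of 14 in B cells. In conventional dendritic cells 9 of 16 lay under 0, and in neutrophils 1 of 5.

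Among ligands, Il21 in conventional CD4 T cells stood at 42.6 and 68.4 CPM in rejecting and 43.0 and 41.6 CPM in tolerized kidneys, with overlapping groups (log2 fold change -0.39, edgeR FDR 0.739). Il2 in the same cells stood at 54.4 and 17.9 against 9.29 and 13.4 CPM, and 1 kidney, rejecting 1, set most of the difference (log2 fold change -1.68, edgeR FDR 0.406). In macrophages Il18 stood at 64.1 and 58.8 against 40.2 and 50.1 CPM and Il15 at 23.0 and 19.0 against 18.5 and 22.1 CPM. Of the partner chains, Il18rap, which completes the IL-18 receptor, stood in NK cells at 353 and 172 against 220 and 209 CPM, and Il2ra in regulatory T cells at 274 and 277 against 219 and 136 CPM (log2 fold change -0.62, edgeR FDR 0.693).

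Over 52 sums per class and kidney and 7716 genes, the profile of log2(CPM + 1) of each member was set beside that of all other genes, as a description without a test, since cells of a class share a library and a depth. Il2rb was most like Lck (r = 0.974), the kinase of the T cell receptor, Nkg7 (0.963), and Skap1 (0.962). Il18r1 was most like Sh2d1a (0.968) and Skap1 (0.956). Il10ra was most like Rassf4 (0.88), Lyn (0.878), and Qk (0.878), and among the genes near Il7r were Ikzf2 (0.848) and Klk8 (0.845). For Il21r the 3 nearest were Slc35e2 (0.885), AU020206 (0.878), and Eprs (0.873), and for Il2rg Slc50a1 (0.919), Emc10 (0.909), and Selenow (0.901). Il12rb1 and Il12rb2 lay under the mean of 10 CPM needed.

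Naive kidneys held few lymphocytes, and they differ in strain, age, and gene list, so they entered no test. In the 31 and 41 T cells of naive 1 and 2, Il7r had 17 and 23 UMIs, Il2rg 19 and 18, Il2rb 5 and 13, Il21r 9 and 3, and Il18r1 4 and 5. Il12rb1 had 0 UMIs in both, which allows up to 47.2 and 30.8 CPM (3 counts), and Il12rb2 and Il10ra had at most 1. In the 28 and 78 B cells, Il21r had 9 and 10 UMIs and Il2rg 13 and 62, and in the 9 and 13 NK cells Il2rb had 7 and 10.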

How the data were processed

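Kidneys of 3 groups were sequenced as single cells (10x Chromium), 1 library per kidney. The authors deposited a matrix of raw UMI counts for each kidney, not normalized, aligned to mm10 with Cell Ranger (version 3.0.1 in the headers of 4 matrices, none given for the naive kidneys, which list 28692 in place of 31053 genes). Groups came from the sample labels. With 2 kidneys per group, the p-values of edgeR rest on a spread between kidneys that was pooled over genes.

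Cells passed with 500 UMIs, 250 genes, and no more than 50% of mitochondrial UMIs. Scrublet scores served to remove the top 0.8% per 1000 barcodes as doublets, 450 to 1256 per kidney. Leiden clustering (scanpy 1.11.5, igraph 0.11.9) of all cells used 2500 variable genes without the members, 40 components, and resolution 1.5. T and NK cells of the transplanted kidneys were then clustered on 1500 genes, 30 components, and resolution 1 with 6 seeds, and the partition of highest modularity was used. A cluster was named where at least 3 markers of a class were found in 10% of its cells and at 2 times the mean over clusters. Such a cluster still stayed unnamed where its 10 leading genes held more markers of another class than of its own. Names rebuilt here can differ from those of the study.

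Counts were added up for each kidney and class with at least 30 cells in each of 4 kidneys. They were tested by the robust quasi-likelihood method of edgeR 4.0.16 in R 4.3.3 (filterByExpr, TMM), with the FDR over all genes of the class, and the scripts were tested on simulated data. DESeq2 1.42.0 and its size factors, no filter, a replicate block, stricter cell filters, doublets kept, resolution 0.6, and leaving out each kidney were alternatives. Chosen after seeing the data were a crossed block, the other seeds, the split of T cells by marker UMIs, and the test of the difference of 2 changes. The genes named are the members, the listed genes closest to the threshold, ligands and partner chains with enough UMIs, and the 3 genes most correlated with a member, of which some are not reported here. The members and lists were chosen with earlier results of these data known. Gene positions follow GENCODE M21 (GRCm38) and promoters RefSeq (GRCm38.p6).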

Additional observations from a re-analysis of the deposited data

Results flagged for a closer look

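The changes of Il7r in 2 pairs of T cell subsets, and of Il18r1 in 1 pair, differed by the test of the difference itself. That test was chosen after the levels were seen and rests on the spread pooled over genes. For Il7r the change in effector CD8 T cells minus that in conventional CD4 T cells was -2.16 on the log2 scale. It ranged from -2.60 to -1.67 when each kidney was left out in turn and from -2.27 to -1.95 with the other clustering seeds, and was -1.79 at resolution 0.6. For Il7r in effector CD8 T cells minus naive or central memory T cells it was -1.45, and -1.76 to -1.13 when each kidney was left out. For Il18r1 in effector CD8 minus conventional CD4 T cells it was -0.947, and this value did not pass without rejecting 1 (-0.801, FDR 0.294), without tolerized 1 (-0.439, FDR 0.977), at resolution 0.6 (-0.771, FDR 0.0751), or with seed 1 (-0.449, FDR 0.71). Groups of 2 kidneys were too small for a check of single outlying kidneys.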

How the results depend on the processing

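Of 1160 log2 fold changes of members recomputed under the alternatives, 1048 kept their direction or moved by less than their error on the same side of the threshold, 36 newly passed it, 1 no longer passed, 75 without a call moved further, and 0 called values changed sign. Il21r in conventional CD4 T cells passed in 18 of 19 alternatives (-1.86 to -1.54). With the replicate number as a block its FDR was 0.12 at a log2 fold change of -1.71, so 0 members were called there, and the block gave 1 in naive or central memory T cells and changed no other member count. The labels do not state that a number marks a shared experiment, and the deviations of same-numbered kidneys correlated at -0.19 to -0.01 over the 14 classes. With the numbers crossed, 1 member was called in all T cells, 1 in effector CD8, and 1 in cycling T cells, and Il21r stayed called in conventional CD4 T cells.

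In effector CD8 T cells, where no member passed at first, 2 passed (Il21r and Il7r) with DESeq2, without the filter, with at least 1000 UMIs, with at most 20% mitochondrial UMIs, and with clustering seeds 3 and 6, and none with seeds 1, 2, and 4. Leaving out 1 kidney, with the lone kidney assumed to vary like the other group, gave 1 to 2 there (Il21r and Il7r without rejecting 1 or 2, Il21r without tolerized 1, Il7r without tolerized 2). It gave 0 to 1, Il21r, in all T cells (without rejecting 2), in naive or central memory T cells (without rejecting 1, rejecting 2, or tolerized 1), in cycling T cells (without rejecting 2 or tolerized 2), and in B cells (without rejecting 1), and 0 to 1, Il2rb, in monocytes and non-classical monocytes (without rejecting 2). Elsewhere 1 member passed in all T cells with DESeq2 and without the filter, in naive or central memory T cells without the filter, at resolution 0.6, and with seed 4, in cycling T cells without the filter, and in macrophages without the filter (Il2rb, carried by rejecting 1). At 500 UMIs a cell the shares in effector CD8 T cells differed by -10.22 percentage points for Il21r and -4.67 for Il7r, against -16.3 and -7.51 at 1000. Over all genes, calls per class ran from 0 to 7, and from 2 to 43 with DESeq2, 33 to 260 without the filter, 0 to 40 with the block, 0 to 150 with the crossed block, and 0 to 532 when 1 kidney was left out. The causes of these moves were not tested. Low UMI counts limit the estimates of Il12rb1 and Il12rb2.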
